A study of Mus musculus with 23 samples.

Results

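The comparison described here asks whether niacin altered the response of CD4+ T cells to stimulation. It uses 23 of the 23 libraries of the series and sets the stimulation response in the presence of niacin against the response in its absence. The cells were splenic T cells from C57BL/6 mice, sorted by flow cytometry as CD45+CD3+CD4+ and negative for CD8. Each culture ran for 72 h with 30 IU/ml of IL-2. Unstimulated cultures received nothing else, and stimulated cultures also received antibodies against CD3 and CD28; each kind was made without niacin and with 5 mM niacin. The mice were labelled wild type or Gpr109a-/-, a deletion of the niacin receptor that is now named Hcar2. This gives 8 groups of 3 libraries, except that unstimulated knockout-labelled cells with niacin had 2. Whether replicates were separate animals is not stated, and the p-values cover the spread among the libraries, which may be technical.

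The value reported for each gene is an interaction on the log2 scale: its stimulation response with niacin minus its stimulation response without niacin, taken within each genotype label and averaged over both labels. An interaction of 1 means that the ratio of stimulated to unstimulated expression was 2 times as large with niacin. The same number is the effect of niacin in stimulated cells minus its effect in unstimulated cells, so it can come from either state. A gene that fell on stimulation and fell less with niacin also has a positive interaction.

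As background, antibodies against CD3 and CD28 stand in for antigen and costimulation, and they start growth, division and effector programmes in T cells. IL-2 signals through the common gamma chain and STAT5. IRF1 is a transcription factor induced by interferons and by NF-kB, and among its targets are genes that cut, carry and load peptides for MHC class I. Niacin is a form of vitamin B3, a source of NAD and the ligand of the receptor HCAR2.

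Before any interaction is read, 4 properties of the libraries matter. Counts of Hcar2 went against the genotype labels: libraries labelled wild type held 0 or 1 count each, and 11 libraries labelled knockout held from 0 to 32. The labels are therefore used as names only, and the average over both labels stays the same if they are exchanged as a whole. It would change if single libraries were mislabelled, which was not tested. One library stood apart, number 3 of the knockout-labelled group without stimulation or niacin (below, the divergent library). It had the lowest total (13205565 counts, where the others ran from 20604050 to 30090018). Its name among the deposited counts also lacks a tag (jax) that those of the other libraries carry. Separate handling of this library was not tested. In it, 29.5% of the genes with a mean of at least 5 CPM (counts scaled to a common library total) differed more than 2 times from the mean of the other 2 libraries, against 0.544% to 6.08% for each library of the other groups of 3 and its own 2 partners. In the wild-type-labelled group that received both stimulation and niacin, libraries 1 and 2 (below, the 2 low-mitochondrial libraries) had 0.187% and 0.217% of counts on the mitochondrial genome, where library 3 had 0.605%. The main results are therefore also given without the divergent library, and without the 2 low-mitochondrial libraries. The latter fit leaves 1 library in that group, so fewer genes at a p threshold in it cannot be told from lost replication. For gene lists, medians of that fit are therefore given without counts. The library kept, number 3, differed more than 2 times from the mean of the other 2 in 5.37% of genes. The 2 left out did so in 1.24% and 2.25%. Among defining markers, Cd4 ran from 400.3 to 654 CPM, Cd8a stayed at or below 5.03 CPM and Lyz2 at or below 6.6 CPM. The other CD8 marker, Cd8b1, ran from 7.02 to 28.9 CPM and was above 0 in every library.

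No gene's interaction passed an adjusted p of 0.05 among 16882 genes tested, in the average over labels, in either label or in the difference between labels (0% in each; edgeR's quasi-likelihood test, Benjamini-Hochberg adjustment). The smallest adjusted p was 0.0801, for Irf1 in the average. In that comparison 2005 genes, 11.9%, had an unadjusted p under 0.05, with 1256 (7.44%) positive and 749 (4.44%) negative. The wild-type label gave 1243 such genes (7.36%; 3.03% positive and 4.33% negative), the knockout label 1143 (6.77%; 4.43% and 2.34%) and the difference between labels 540 (3.2%; 1.86% and 1.34%). These shares are the level against which the gene groups below are read over all libraries, where a member with an unadjusted p under 0.05 is called nominally positive or nominally negative, whatever the sign of the others. Without the divergent library, 1036 of 16814 genes were nominally positive and 703 nominally negative in the average. DESeq2 called 54 genes in the average and limma voom with library quality weights called 318. Without the divergent library 4 genes were called in the average (Irf1, Tap2, Pim2 and Plscr3), and without the third library of the group with the low-mitochondrial libraries 10 were.

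**Figure D1:**
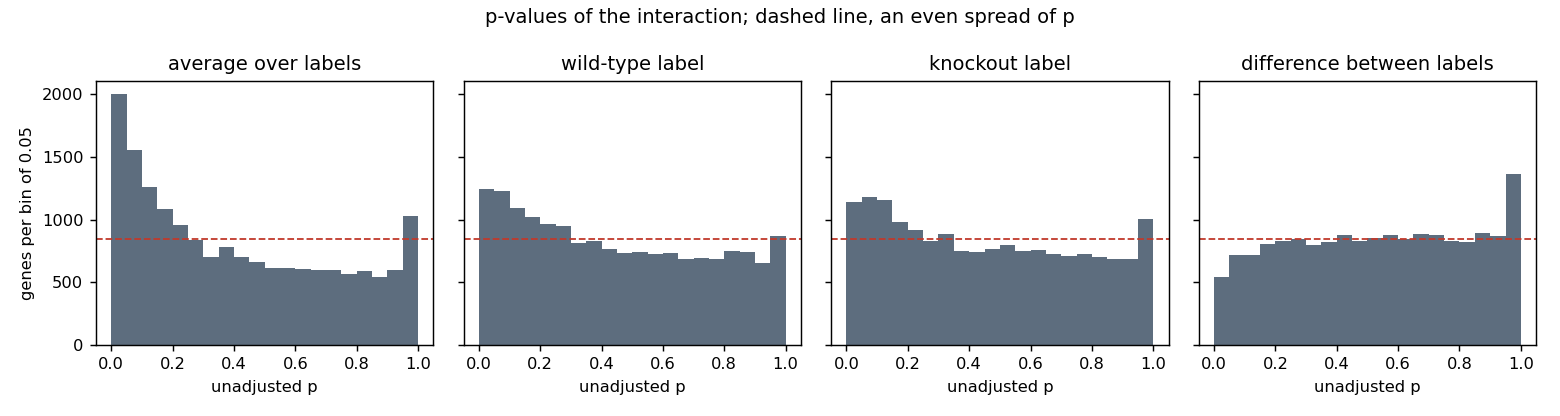
Histograms of the unadjusted p-values (x axis, bins of 0.05) over 16882 genes (y axis, genes per bin) for the interaction averaged over labels, in each label, and for its difference between labels. The first bin holds 2005 genes in the average and 540 in the difference between labels; the dashed line marks an even spread.

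The responses to stimulation with and without niacin ran close together gene by gene. Over the 9743 genes with a mean of at least 5 CPM, both log2 responses, which rest on separate libraries, correlated at r = 0.944 (rho = 0.933) across genes, which are not independent replicates. The responses had a spread of 1.23 (SD, log2) without niacin and 1.29 with it, and the interaction had a spread of 0.42. The interaction exceeded 1 in size for 145 of these genes, 1.49%. Its 95% interval lay within a 2-fold difference for 77.0% of them, and for 46.6% of all genes tested, where the median standard error was 0.33. Over all 16882 genes tested, low ones included, r was 0.875, the interaction had a spread of 0.95 and it exceeded 1 in size for 14.8%.

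**Figure D2:**
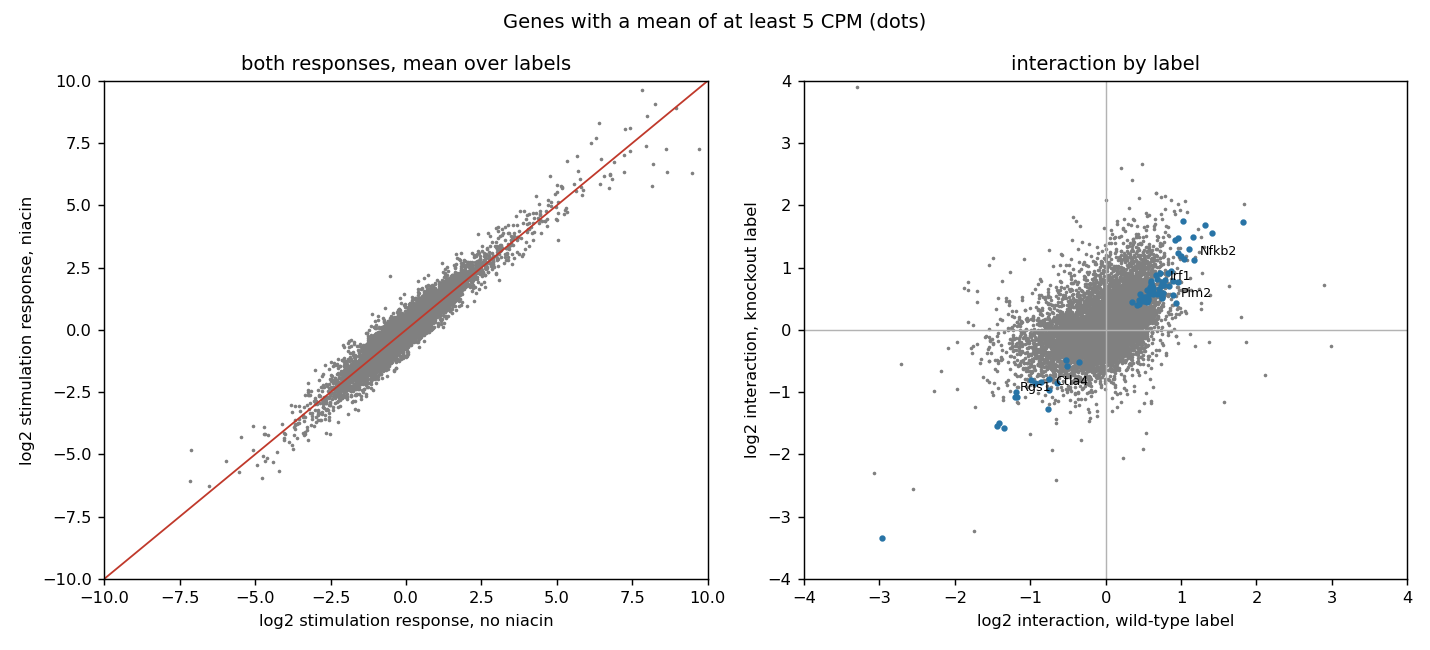
Left, log2 stimulation response without niacin (x axis) and with niacin (y axis), averaged over labels, for 9743 genes; the red line marks equal responses, and 6 genes lie outside the axes. Right, the interaction in the wild-type label (x axis) and in the knockout label (y axis), with 79 genes of unadjusted p under 0.05 and the same sign in both labels in blue; 8 genes lie outside the axes.

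Irf1 (ENSMUSG00000018899, chromosome 11, 53770014 to 53778374, plus strand, GRCm38) had the smallest p. In unstimulated wild-type-labelled cells it stood at 1093, 1060.5 and 1104 CPM without niacin and at 760.1, 779 and 560.4 CPM with niacin. After stimulation the same cells held 304, 298 and 300.0 CPM without niacin and 336, 352 and 310.02 CPM with it. In knockout-labelled cells the unstimulated values were 920.1, 1073 and 879.7 CPM without niacin and 655 and 677 CPM with it, and the stimulated values were 246, 279 and 256 CPM against 287, 303 and 302 CPM. Niacin libraries thus lay below their controls in the unstimulated state and above them in the stimulated state, without overlap in any of the 4 pairs of groups. The stimulation response was -1.87 on the log2 scale without niacin and -1.12 with it, so the interaction was 0.75 ± 0.12 (SE; adjusted p = 0.0801), at 0.78 in the wild-type label and 0.72 in the knockout label. Without the divergent library the interaction of Irf1 was 0.78 (adjusted p = 0.013), and without the 2 low-mitochondrial libraries it was 0.68.

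That pattern, with niacin libraries below in both unstimulated pairs and above in both stimulated pairs and no overlap, was met by 6 genes of 16882, 0.0355%. Besides Irf1 they were Dusp28, Gimap1, Itgb7, Parp3 and Ppp6r1, named after their values were seen, with interactions of 1.23, 0.85, 0.64, 0.77 and 0.75. Itgb7 is an integrin chain that pairs in gut homing, and Gimap1 is a GTPase of lymphocyte survival. The opposite pattern was met by 1 gene, Rgs1 (0.00592% of genes).

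Promoter sequence upstream of 4 genes with positive interactions is shown because their genes belong to the IRF1, cytokine feedback and NF-kB groups described below and hold a match to one of 3 short motifs. They were chosen for that match: Pim2, Plscr3, Psmb10, Tap1, Psmb9, Bcl3, Il18bp, Cd274, Gadd45b and the second listed start of Irf1 hold none. Each is the stretch of 250 bases before a RefSeq transcription start (GRCm38.p6), 5′ to 3′ on the strand of the gene, at chr11:53769764-53770013 (plus) for Irf1, chr16:10785537-10785786 (minus) for Socs1, chr19:46304487-46304736 (plus) for Nfkb2 and chr12:55492648-55492897 (minus) for Nfkbia. Capitals mark matches, on either strand, to the GAS spacing of a STAT site (TTC, any 3 bases, GAA), an IRF element (GAAA, any 2 bases, GAAA) or a narrow form of the kappaB site (GGGA, any 2 bases, TTCC). Socs1 is the case in which 2 matches overlap. Only these letters were searched, so lower-case stretches, those of Irf1 and Nfkb2 included, may hold other forms of these sites.
Irf1: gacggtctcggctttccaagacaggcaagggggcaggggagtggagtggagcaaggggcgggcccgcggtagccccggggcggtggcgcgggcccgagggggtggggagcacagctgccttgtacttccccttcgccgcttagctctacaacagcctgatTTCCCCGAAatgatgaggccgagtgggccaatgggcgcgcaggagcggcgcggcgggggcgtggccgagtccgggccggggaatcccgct
Socs1: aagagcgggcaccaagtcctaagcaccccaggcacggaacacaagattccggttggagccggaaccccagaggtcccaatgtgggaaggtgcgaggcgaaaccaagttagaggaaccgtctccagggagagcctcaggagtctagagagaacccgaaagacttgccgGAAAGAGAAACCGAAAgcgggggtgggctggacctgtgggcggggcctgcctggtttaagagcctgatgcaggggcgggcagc
Nfkb2: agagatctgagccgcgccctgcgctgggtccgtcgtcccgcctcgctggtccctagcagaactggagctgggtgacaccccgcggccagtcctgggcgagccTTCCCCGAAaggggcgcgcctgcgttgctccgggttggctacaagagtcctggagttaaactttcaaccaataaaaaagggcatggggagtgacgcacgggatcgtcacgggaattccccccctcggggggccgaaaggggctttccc
Nfkbia: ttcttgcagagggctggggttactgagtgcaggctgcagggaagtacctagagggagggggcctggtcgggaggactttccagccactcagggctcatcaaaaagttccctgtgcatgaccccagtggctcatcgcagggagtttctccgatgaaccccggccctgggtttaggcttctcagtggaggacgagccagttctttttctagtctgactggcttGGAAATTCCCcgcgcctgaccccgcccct
The match in Irf1 is a GAS spacing that begins 90 bases before the start, and Nfkb2 holds the same 9 letters 148 bases before the first of its 3 listed starts. The other listed starts of Nfkb2, not shown, hold a kappaB match 236 and 225 bases upstream and no GAS spacing. Socs1 holds a pair of overlapping IRF elements, and Nfkbia a kappaB match 29 bases before its start. Over 27025 genes in the RefSeq table, 8.13% held the GAS spacing, 3.46% the IRF element and 1.36% the kappaB letters in this window at any listed start. A match is a description of letters and says nothing of binding.

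Genes of MHC class I presentation and the immunoproteasome, the forms of the proteasome, peptide transporters and loading factors that supply class I molecules, leaned to positive interactions. This list, like those of interferon gamma and NF-kB genes below, was added after values had been seen, so its counts are not independent evidence of its direction. Of 20 members tested, 12 had an unadjusted p under 0.05 with a positive interaction and 0 with a negative one, where 7.44% and 4.44% of all genes did. The median interaction was 0.47, against -0.00 over all genes, with 0.47 in the wild-type label and 0.46 in the knockout label. None passed the adjusted threshold in edgeR's test of all libraries, while DESeq2 called 6 and limma voom with quality weights 10. The median effect of niacin on these genes was -0.44 in unstimulated cells and -0.00 in stimulated cells. Their median stimulation response was -0.54 without niacin and -0.08 with it, a smaller fall and not a stronger induction. The count was 14 and the median 0.34 without the divergent library, at 0.47 in the wild-type label and 0.33 in the knockout label. Without the 2 low-mitochondrial libraries the median was 0.36, at 0.28 in the wild-type label and 0.44 in the knockout label.

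Tapbpl, a tapasin-related editor of the peptides on class I, had an interaction of 0.73 ± 0.15 (adjusted p = 0.215). Unstimulated wild-type-labelled cells held 244, 245 and 236 CPM without niacin and 182, 166 and 133 CPM with it, and knockout-labelled cells held 189, 216 and 208 CPM against 142 and 149 CPM. The groups did not overlap in either label. The share of all genes that separate in this way was not counted, here or for genes below read in single pairs of groups. These genes were named with their values in the same libraries known, so such separation describes them and is not further evidence. Stimulated cells held 96.7, 108 and 115 CPM without niacin against 125, 162.5 and 107 CPM with it in the wild-type label, and 113, 136 and 121 CPM against 119, 128 and 140.5 CPM in the knockout label, and these groups overlapped.

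Tap2, one chain of the transporter that brings peptides into the endoplasmic reticulum, had an interaction of 0.72 ± 0.16 (adjusted p = 0.215). It stood at 628, 607 and 609.9 CPM in unstimulated wild-type-labelled cells and at 449, 453 and 409 CPM with niacin. The knockout-labelled values were 548, 576 and 972 CPM against 435 and 436 CPM, the highest being the divergent library. After stimulation the wild-type-labelled values were 406, 444 and 456 CPM against 553, 543 and 449 CPM with niacin, and the knockout-labelled values were 410.4, 434 and 412 CPM against 430.2, 436 and 409 CPM. Without the divergent library its knockout-label interaction went from 0.70 to 0.39, while its average of 0.56 ± 0.09 had an adjusted p of 0.0371.

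Other members of the pathway gave similar sizes. Psmb10, a catalytic subunit of the immunoproteasome, had 0.87 ± 0.19, and its partners Psmb8 and Psmb9 had 0.55 and 0.42. Tap1, the other transporter chain, had 0.63, and Tapbp, the loading factor tapasin, had 0.75. The proteasome activator Psme1 had 0.43 and Psme2 had 0.21. Among the class I molecules themselves H2-T23 had 0.68 ± 0.15, H2-D1 0.50, H2-Q7 0.50 and H2-K1 0.44. B2m, the light chain shared by all of them, had 0.05 and Nlrc5, their transactivator, 0.05, both with intervals that include 0. H2 genes are close copies of one another, so reads may be split between them.

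**Figure D3:**
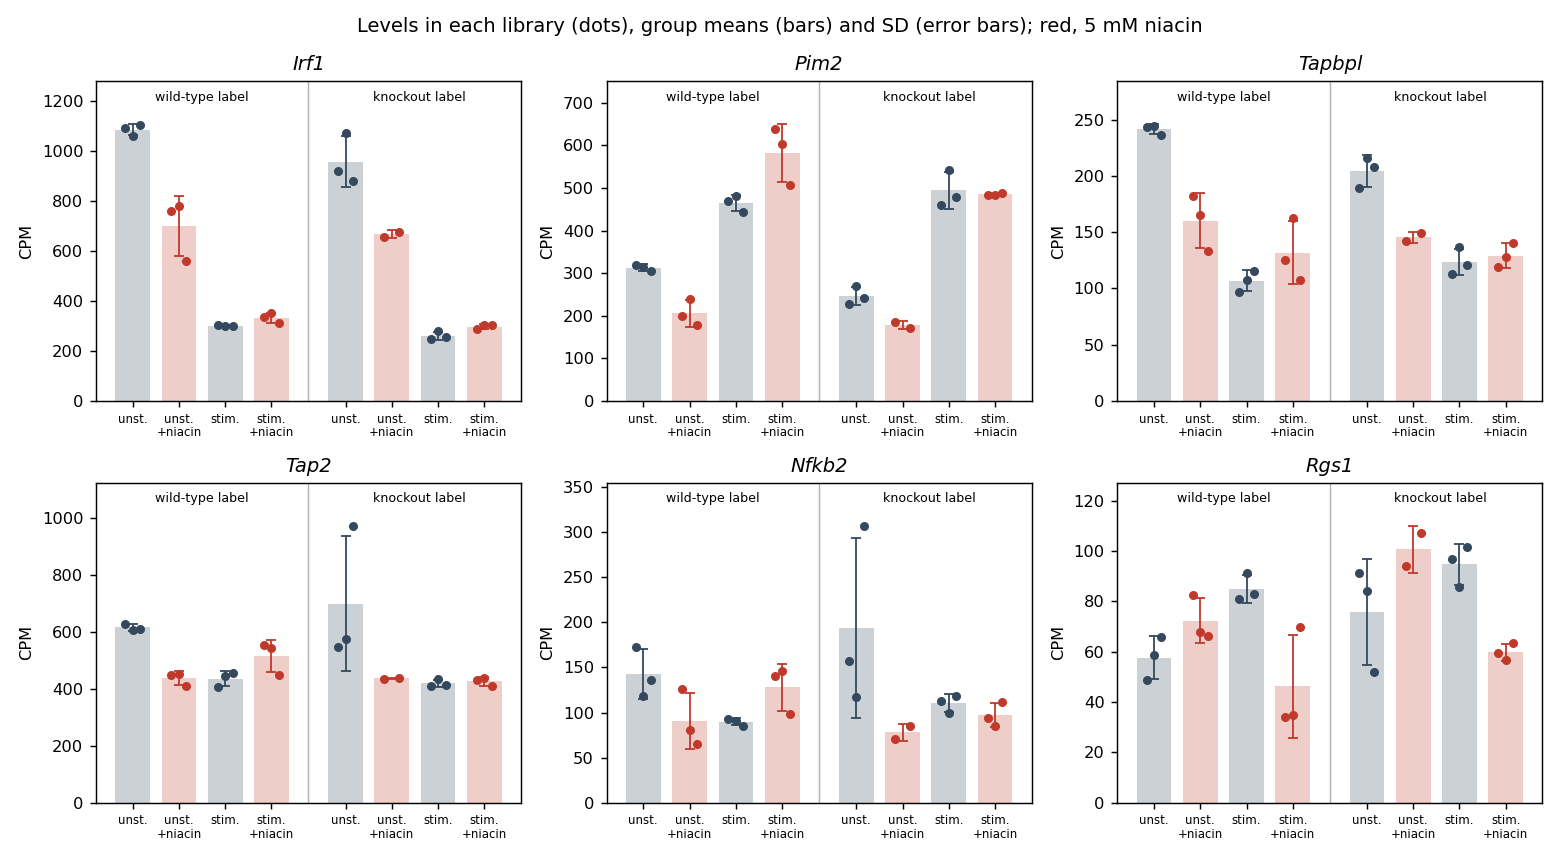
CPM (y axis) of 6 genes in each library (dots) of the 8 groups (x axis), with group means (bars) and SD (error bars); groups with 5 mM niacin are red. Irf1 lies below its controls in both unstimulated groups with niacin and above them in both stimulated groups; Rgs1 does the opposite, and the divergent library is the high dot of Tap2 (972 CPM) and Nfkb2 (307 CPM).

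A list of interferon gamma response genes, largely guanylate-binding proteins and immunity-related GTPases beside Irf1, gave 10 positive and 0 negative members of 25 at an unadjusted p under 0.05, with a median of 0.44. Il18bp, a secreted inhibitor of IL-18, had 1.39 ± 0.32, Irf8 1.03 ± 0.34, Gbp10 0.99 ± 0.39 and Gbp2 0.78 ± 0.30. Ifng itself had 0.59 ± 0.93, an error too large to read. The count was 17 and the median 0.59 without the divergent library, and without the 2 low-mitochondrial libraries the median was 0.51. The median effect of niacin on the list was -0.71 in unstimulated cells and -0.24 in stimulated cells. The median stimulation response of the list was a fall, at -1.91 without niacin and -1.56 with it. Of its members, 15 have a promoter in the RefSeq table, and 8 of them hold the GAS spacing and 9 the IRF element, where 8.13% and 3.46% of all genes do. For the class I list these were 2 and 3 of 17, for the NF-kB list 7 and 0 of 24, with 4 holding the kappaB letters, and for the common gamma chain list below 3 and 1 of 17.

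The type I interferon list had a median interaction near 0. Of 31 members, 3 were nominally positive and 3 nominally negative, and the median was -0.07. The median effect of niacin on its members was -0.71 in unstimulated cells and -0.91 in stimulated cells, values of one sign that largely cancel in the interaction. Mx1, an antiviral GTPase, had -1.51 ± 0.53, Trim30a -0.84 ± 0.27 and Usp18, which removes ISG15, -0.59 ± 0.27. Leaving out the divergent library gave 5 nominally positive and 3 nominally negative members, with a median of 0.00. Ifi35 and Oasl2 were among the nominally positive members over all libraries.

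NF-kB genes leaned to positive values. Among 28 subunits, inhibitors and targets, 14 were positive and 0 negative at an unadjusted p under 0.05, and the median was 0.35. Bcl3, a nuclear cofactor of NF-kB, had 1.51 ± 0.37, Relb, a subunit of the noncanonical branch, 1.32 ± 0.34, and Nfkb2, the precursor of its partner p52, 1.15 ± 0.28. Gadd45b had 1.49 ± 0.34, Nfkbia, the inhibitor that each activation induces, 0.69 ± 0.19, Rela 0.52 ± 0.14 and Nfkb1 0.33 ± 0.14. Rel had 0.13 ± 0.21 and Ikbkb, a kinase of the pathway, -0.01 ± 0.13. The median effect of niacin was -0.24 unstimulated and 0.11 stimulated. These genes also fell on stimulation at the median, by -0.68 on the log2 scale without niacin and -0.30 with it.

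Several NF-kB genes were high in the divergent library. Nfkb2 stood at 157, 118 and 307 CPM in unstimulated knockout-labelled cells, at 71.0 and 84.8 CPM with niacin, and at 113, 99.9 and 119 CPM after stimulation against 93.9, 85.2 and 111 CPM with niacin. In wild-type-labelled cells it stood at 173, 118 and 137 CPM against 126, 81.1 and 65.0 CPM with niacin, and after stimulation at 92.9, 90.6 and 85.2 CPM against 140.5, 146 and 98.2 CPM. The divergent library held the 307 CPM. Without it the knockout-label interaction of Nfkb2 was 0.63 in place of 1.12, that of Relb 0.75 in place of 1.49 and that of Ltb, a TNF-family ligand, 0.31 in place of 1.23. The list then held 12 nominally positive and 1 nominally negative members in the average, with a median of 0.29, and 3 nominally positive members in the knockout label in place of 9. Of all genes, 311 were then nominally positive in the knockout label in place of 748. Without the 2 low-mitochondrial libraries the median was 0.29 in the average, and 0.20 in place of 0.47 in the wild-type label.

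The list of common gamma chain receptors and STAT feedback genes includes the IL-2 receptor chains, and every culture held IL-2. Whether its values reflect that IL-2 was not tested. Of 19 members, 15 had a value above 0, 9 were nominally positive and 1 was nominally negative, with a median of 0.32. The median stimulation response of the list was -0.17 without niacin and 0.56 with it. Pim2, a survival kinase and STAT5 target, had the second smallest p in the average (0.68 ± 0.13, adjusted p = 0.184). It stood at 320.1, 315 and 304 CPM in unstimulated wild-type-labelled cells against 199.99, 240.5 and 177 CPM with niacin, and at 471, 481 and 444 CPM after stimulation against 638, 603 and 507 CPM. In knockout-labelled cells it stood at 228, 270.04 and 241 CPM against 185 and 172 CPM, and after stimulation at 461, 543 and 479 CPM against 482, 484 and 489 CPM. Only the last pair overlapped, and the share of all genes that do the same was not counted. Its interaction was 0.93 in the wild-type label and 0.44 in the knockout label, and the difference between them, -0.49 ± 0.25, had an adjusted p of 1.00.

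Socs1, the inhibitor of JAK kinases that STATs induce, had 1.56 ± 0.46. It stood at 634, 606 and 3678 CPM in unstimulated knockout-labelled cells, where the divergent library is the last value, and without it its average interaction was 0.86 ± 0.21 (adjusted p = 0.192). Socs3 had 0.77 ± 0.26, Stat5a 0.48 ± 0.17, Jak3 0.95 ± 0.35, Il4ra 0.32 ± 0.11 and Socs2 0.71 ± 0.34. The nominally negative member was Il7r, the IL-7 receptor of resting T cells, with -1.05 ± 0.30. Il2ra, the high-affinity IL-2 receptor chain, had -0.12 ± 0.23, and Il2rb 0.13 ± 0.26. Without the divergent library the list held 9 nominally positive and 1 nominally negative members. The list median was 0.31 without the 2 low-mitochondrial libraries.

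**Figure D4:**
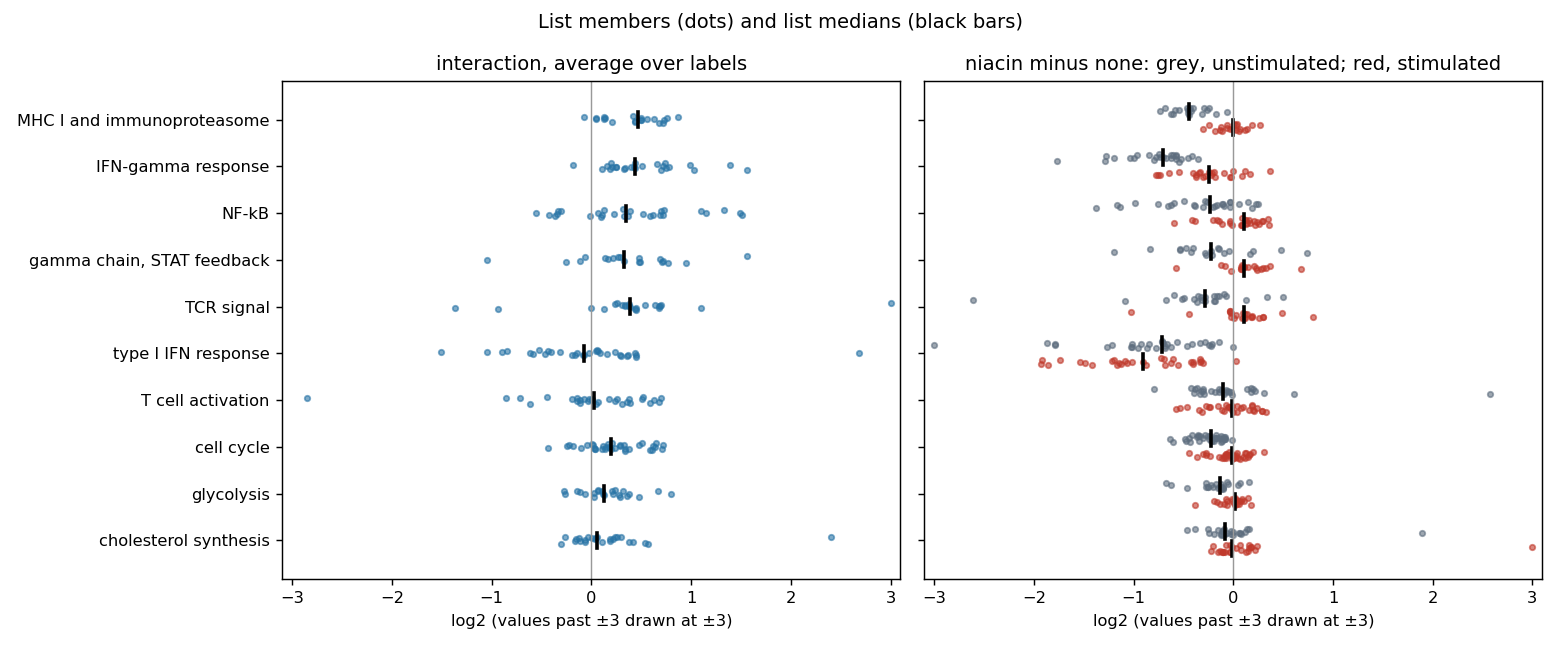
Left, the interaction of each member (dots) of 10 gene lists (y axis) on the log2 scale (x axis), with list medians (black bars); values past 3 in size are drawn at the edge. Right, the effect of niacin on the same members in unstimulated (grey) and stimulated (red) cells; the class I list has medians of -0.44 and -0.00, and the type I interferon list -0.71 and -0.91.

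Rgs1, a brake on chemokine receptor signalling, was the leading negative gene. In wild-type-labelled cells it stood at 48.7, 58.5 and 65.7 CPM unstimulated against 82.6, 67.8 and 66.5 CPM with niacin, and at 80.9, 91.1 and 82.8 CPM stimulated against 34.0, 34.8 and 69.8 CPM. In knockout-labelled cells it stood at 91.5, 84.0 and 52.0 CPM against 94.0 and 107 CPM, and stimulated at 96.8, 85.9 and 102 CPM against 59.5, 56.6 and 63.3 CPM. None of the 4 pairs overlapped. The interaction was -1.14 ± 0.23 (adjusted p = 0.215), at -1.21 and -1.07 in the wild-type and knockout labels, and -1.03 and -0.86 without the libraries named above.

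Ctla4, the inhibitory receptor that competes with CD28, had -0.86 ± 0.21 (adjusted p = 0.272). It stood at 6.22, 7.46 and 6.23 CPM in unstimulated wild-type-labelled cells and at 10.1, 9.76 and 8.51 CPM with niacin, and at 81.5, 87.6 and 78.3 CPM after stimulation against 62.0, 62.7 and 85.5 CPM. In knockout-labelled cells the values were 9.66, 9.47 and 4.28 CPM against 13.9 and 12.2 CPM, and 84.7, 84.8 and 85.4 CPM against 79.4, 74.1 and 59.7 CPM. Unstimulated niacin libraries lay above their controls in both labels, a separation whose share among all genes was not counted. Endou, an endoribonuclease, was near 0 in all unstimulated cells (at most 0.289 CPM), and stimulated cells held 20.6 to 31.9 CPM without niacin and 9.43 to 19.6 CPM with it, without overlap in either label. Its fitted interaction of -3.16 ± 0.67 rests on those few unstimulated counts. How many genes of all tested separate likewise in stimulated cells was not counted.

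Plscr3, a phospholipid scramblase, had 0.87 ± 0.17 (adjusted p = 0.215). It stood at 53.5, 51.7 and 49.7 CPM in unstimulated wild-type-labelled cells against 33.5, 38.4 and 38.0 CPM with niacin, and at 35.7, 31.9 and 34.1 CPM after stimulation against 48.6, 49.9 and 41.6 CPM. In the knockout label it stood at 45.3, 50.6 and 79.9 CPM against 36.2 and 32.4 CPM, and after stimulation at 32.4, 29.5 and 34.7 CPM against 34.8, 28.2 and 34.0 CPM. The wild-type-labelled groups did not overlap, and the stimulated knockout-labelled groups did. The share of all genes with the same separation was not counted.

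**Figure D5:**
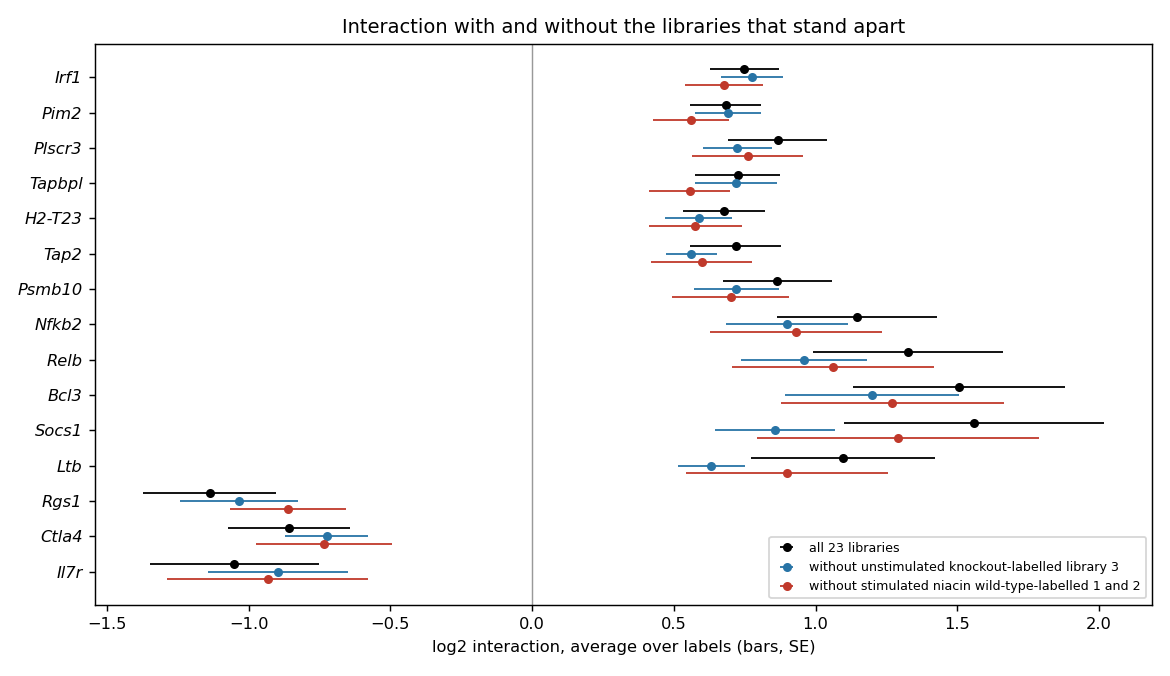
Interaction averaged over labels (x axis, log2; bars, SE) of 15 genes (y axis) over all 23 libraries, without the divergent library, and without the 2 low-mitochondrial libraries. All points keep their side of 0, which was likely for genes picked with these values known and fits that share most libraries. Socs1 ranges from 0.86 to 1.56.

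Several programmes of activated cells had list medians of 0.20 or less. Of 30 activation genes 17 had a value above 0, 5 were nominally positive and 3 nominally negative, with a median of 0.03. Mif (0.67) and Batf (0.62) were among the former, and Icos (-0.61) and Hif1a (-0.45) joined Ctla4 among the latter. Of 35 cell cycle genes 29 had a value above 0 and 3 were nominally positive, with a median of 0.20; by label, 19 were above 0 in the wild-type label (median 0.06) and 35 in the knockout label (median 0.34). Glycolysis had 3 nominally positive of 23 with a median of 0.12, cholesterol synthesis 2 of 25 with 0.06, ATF4 targets 2 of 30 with 0.16 and the unfolded protein response 0 of 20 with 0.12. The NAD metabolism list, the enzymes that niacin feeds, had 1 nominally positive and 1 nominally negative of 27, with a median of 0.03.

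Counts of these lists moved both ways with single libraries. So did the number of all genes with an unadjusted p under 0.05 in the average. It was 2005 over all libraries and ran from 1276 to 3138 as single libraries were left out. Whether the lists moved more than all genes was not tested. Without library 1 of the wild-type-labelled cells given niacin alone, 8 activation, 14 cell cycle, 10 glycolysis, 5 ATF4 and 4 unfolded protein response genes were nominally positive. The cholesterol list reached 5 without library 2 of the knockout-labelled group that had neither stimulation nor niacin, and also without the third library of the low-mitochondrial group. Without library 2 of the knockout-labelled cells given niacin alone, 2 activation and 0 ATF4 genes were nominally positive. Leaving out the 2 low-mitochondrial libraries gave medians of -0.04 for activation, 0.15 for cell cycle and 0.11 for glycolysis. The medians of the cholesterol and ATF4 lists were then 0.01 and 0.09.

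A list of T cell receptor signal genes had a median stimulation response of -0.06 without niacin and 0.32 with it. In the interaction it had 20 of 23 values above 0 and 7 nominally positive members, with 0 nominally negative and a median of 0.39. Among them were Dusp2 (0.68), Zfp36l1 (0.68) and Nfatc1 (0.38). The count and median were 5 and 0.21 without the divergent library, and the median was 0.29 without the 2 low-mitochondrial libraries. Over single libraries left out, the count ran from 3 to 10, with 3 without library 1 of the wild-type-labelled group that had neither stimulation nor niacin, or without the first low-mitochondrial library.

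Nuclear genes of oxidative phosphorylation had 24 of 36 values above 0 and 7 nominally positive members, with a median of 0.10. This count was 14 without library 1 of the wild-type-labelled cells given niacin alone, and 1 without library 2 of the knockout-labelled cells given niacin alone. The median was 0.07 without the 2 low-mitochondrial libraries. Genes of the mitochondrial genome had 3 nominally negative members of 8 with a median of -0.69, at -1.10 in the wild-type label and -0.19 in the knockout label. Without the 2 low-mitochondrial libraries, which leaves 1 library in that group, their median was -0.29. None (0) were nominally negative without the divergent library, with a median of -0.58. That library was also low in mitochondrial share for its group, at 0.407% against 0.795% and 0.643%. So were library 1 of the wild-type-labelled group without stimulation or niacin (0.346% against 0.937% and 0.802%) and library 3 of stimulated knockout-labelled cells with niacin (0.374% against 0.562% and 0.514%). LXR targets had 4 nominally positive and 1 nominally negative of 10, with Abcg1, a cholesterol exporter, at 0.48 ± 0.15. They had 3 and 1 without the divergent library. Their median was 0.54 over all libraries and 0.37 without the 2 low-mitochondrial libraries. The hypoxia list had 2 nominally positive and 4 nominally negative of 21, with Bnip3, a mitophagy receptor, at -0.57 ± 0.19. The median of that list was -0.11 over all libraries and -0.11 without the 2 low-mitochondrial libraries.

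Of 10 genes of MHC class II, 8 had a value above 0 and 3 were nominally positive, with a median of 0.69: H2-DMa (0.65 ± 0.19), H2-Ab1 (1.38 ± 0.61) and H2-Eb1 (1.75 ± 0.81). Without the divergent library 2 were nominally positive, and single libraries left out gave from 1 to 5. Without the 2 low-mitochondrial libraries the median was 0.41. These genes are also those of antigen-presenting cells, whose part in the result was not tested. The 11 B cell markers summed to 415 to 1109 CPM per library, of which Ighm gave 408 to 1103 CPM, and 3 defining ones (Pax5, Blnk, Ebf1) were too low to be tested. The light chain gene Igkc was the B cell marker with an unadjusted p under 0.05, with a fitted interaction of 5.90 ± 1.88; it reached 51.4 CPM in a library of unstimulated wild-type-labelled cells and stayed at or below 3.94 CPM in all stimulated ones. The 14 myeloid and dendritic markers summed to 1.36 to 14.8 CPM, with 3 to 7 of them at 0 in each group. The 12 NK and gamma delta T cell markers summed to 102 to 270 CPM. Of 10 tested, 2 had an interaction above 0 and 1 was nominally negative, with a median of -0.63. In bulk RNA, fewer cells of a type and less RNA per cell cannot be told apart.

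The interaction was alike in direction in both labels for many genes, which are measured in separate libraries. Over the 9743 genes, the wild-type-label and knockout-label values correlated at r = 0.499 across genes, and 67.7% had the same sign. Over all 16882 genes tested r was 0.121, and 62.3% had the same sign. Of 851 genes at that level with an unadjusted p under 0.05 in the wild-type label, 78.5% had the same sign in the knockout label. Over all genes tested, an unadjusted p under 0.05 in both labels was met by 111 genes with the same sign and 18 with opposite signs, and 79 of the former had a mean of at least 5 CPM. The correlation and the share of one sign over genes of at least 5 CPM were lower without either set of doubted libraries, with r = 0.294 and 57.7% without the divergent library, and r = 0.269 and 58.1% without the 2 low-mitochondrial libraries. The latter fit left 1 library in its group, so its counts of genes at a p threshold are not compared here. Values of 1 label also moved with the size of the response in the other, the median in the wild-type label being -0.20 for genes that fell over 4-fold in the knockout label and 0.15 for genes that rose over 4-fold; without the 2 low-mitochondrial libraries these were -0.05 and 0.05. The knockout-label medians, by response in the wild-type label, were -0.15 and 0.11, and -0.02 and 0.01 without the divergent library.

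No gene's interaction differed between labels past the adjusted threshold, and the smallest adjusted p was 0.144, for Fzd7, a Wnt receptor. It stood at 16.98 to 26.99 CPM in stimulated wild-type-labelled cells without niacin and 19.9 to 26.2 CPM with it, and in unstimulated cells at 0.331 to 0.663 CPM without niacin and 0 to 0.0413 CPM with it. In knockout-labelled unstimulated cells it was at 0 in all 3 libraries without niacin and at 0.0853 and 0.927 CPM with it, so the difference rests on a few counts. Rb1, the retinoblastoma tumour suppressor, had -1.28 ± 0.26 in the wild-type label (adjusted p = 0.446) and 0.44 ± 0.28 in the knockout label, and stood at 32.4, 29.2 and 51.4 CPM in stimulated wild-type-labelled cells with niacin against 65.2 to 72.9 CPM without it. Without the 2 low-mitochondrial libraries its wild-type-label value was -0.86.

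In the wild-type label Gata1, an erythroid transcription factor, had 0.99 ± 0.21 (adjusted p = 0.456), with 61.3 to 69.7 CPM in stimulated cells and 74.5 to 97.5 CPM with niacin, and 1700028E10Rik had -1.64 ± 0.37. In the knockout label the smallest adjusted p was 0.24, for Gm26789, which was at 0 in all 3 stimulated libraries without niacin and at 0.739 to 1.13 CPM with it. Akap1, a mitochondrial anchor of protein kinase A, had 2.41 ± 0.55 there, and 1.85 without the divergent library. Pmaip1, which encodes the cell death protein NOXA, had -1.90 ± 0.46 in the knockout label, with 4.37 to 5.36 CPM in stimulated cells without niacin and 1.89 to 2.42 CPM with it. Nectin3, Hs3st1, Gm15880, Btnl2, Gm37879 and Tjp1 also ranked among the 6 smallest p-values of a comparison, with group means at or under 3.62 CPM. Of the receptors for niacin and related acids, Hcar2 had group counts too low for its fitted interaction to be read, Hcar1 was at 0 in all but 2 libraries, and Ffar2, a short-chain fatty acid receptor, held 0 to 50 counts per library.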

How the data were processed

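RNA from sorted CD4+ T cells was amplified with SMART-seq V4 and sequenced as paired ends on an Illumina HiSeq, per the labels' protocols. Reads were handled with Trimmomatic 0.38, STAR 2.7.0e and featureCounts 1.6.3, with the builds GRCm38.p5 and mm10, per the submitters' processing notes. The authors deposited raw counts per gene, with 13205565 to 30090018 counts per library. No label or header states the strand setting. Symbols were matched for 53274 of 53379 gene IDs.

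Counts were fitted with edgeR 4.0.16 (R 4.3.3), using TMM factors, genes kept by a minimum count of 10 (16882 genes), 1 mean per group over 8 groups and 15 residual degrees of freedom, and quasi-likelihood F tests with Benjamini-Hochberg adjustment at 0.05. Standard errors were derived from the F statistic. CPM used the same factors. The script was tested on simulated data. DESeq2 1.42.0 and limma 3.58.1 served as alternatives. The genes named are the 6 with the smallest p in each of the 4 comparisons, plus members of the lists. The members and lists were chosen with earlier results of these data known; 36 lists were written with the design and 3 (MHC class I, interferon gamma, NF-kB) were added later. Promoters came from RefSeq (GRCm38.p6). No replicate pair agreed within sampling noise. Replicate 1 of unstimulated knockout-labelled cells with niacin was not analysed here.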

Additional observations from a re-analysis of the deposited data

How the results depend on the processing

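The number of genes past an adjusted p of 0.05, 0 in each comparison, depended on the tool and filter. Without a filter on low counts (30367 genes) there were 516 in the average over labels, 132 in the wild-type label, 245 in the knockout label, 41 in the difference between labels and 91 among members of the 36 lists written with the design, summed over the comparisons. In that fit the prior degrees of freedom were infinite, which pools the quasi-likelihood spread over genes. The main fit had 5.61, so its counts and those without a filter are not on the same footing. limma voom with library quality weights gave 318 in the average, 1363 in the wild-type label, 1 in the difference between labels and 109 among list members, while voom without weights gave 1 in the average. DESeq2 gave 54, 7, 1, 2 and 6, in the same order as the fit without a filter; of the 3 added lists it called 6 class I, 4 NF-kB and 2 interferon gamma genes in the average. A fit with 1 additive term for the label gave 1 in the average. The cause was not tested. Size factors of DESeq2's kind, upper-quartile factors, a minimum of 1 CPM in 3 libraries and a fit without the 2 low-mitochondrial libraries gave 0 in the average. Leaving out 1 library at a time gave 0 to 10 in the average, 0 to 146 in the wild-type label, 0 to 1 in the knockout label, 0 to 1 in the difference and 0 to 12 among list members. Without the third library of the group with the low-mitochondrial libraries there were 10 in the average and 146 in the wild-type label, and without the divergent library 4 and 4.

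The replicate block gave 0 genes in the average. Same-numbered libraries correlated at a mean of 0.012 over 77 pairs, and 10 of 23 libraries correlated best with their own number, so the numbers were not taken as pairs. Of 1156 values for 34 genes over the alternatives, 0 reversed direction and 88 passed the threshold. These genes were chosen with their interactions known, and the alternatives share most libraries, so a kept direction was likely. No such rate is given for all genes. Irf1 ranged from 0.68 to 0.79. Depth limits the genes under about 5 CPM most: the median standard error was 0.33 over all genes and 0.22 above that level.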
